A study of Mus musculus with 4 samples.

Results

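CDKN3, CENPN and ANAPC15 are 3 genes of cell division. Their RNA was compared between breast tumor xenografts with and without a knockdown of the protein acyltransferase DHHC3. All probe sets whose platform annotation gave exactly 1 gene symbol, equal to one of these names, were taken from the deposited table. This gave 3 probe sets, 1 for each gene, out of 137 in the table, or 3 of the 99 genes that the table names by a single symbol. The study asked how DHHC3, encoded by ZDHHC3, bears on senescence, oxidative stress and the growth of breast tumors. The tumor cells were MDA-MB-231, an established human triple-negative breast cancer line. They carried either a control short hairpin RNA (shRNA) or an shRNA against DHHC3, and were injected into mammary fat pads. The hosts were female athymic nude mice, labelled Crl:NU(NCr)-Foxn1nu, with 10 injections per group. The labels give the tumors as xenografts after 35 days, and the design text gives 30 days of tumor volume measurements. RNA of 2 control shRNA samples and 2 DHHC3 shRNA samples was measured, 1 sample per array. Each title names a tumor and a replicate number, and each sample is called a tumor here.

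The groups have limits as a model. Both groups carry an shRNA, so neither is an untreated tumor. The labels name a DHHC3 shRNA without its sequence and show no group with a different hairpin. A decrease of DHHC3 and other effects of the shRNA therefore cannot be told apart. The hosts are athymic, so they lack mature T cells but keep other immune cells and a mouse stroma. The labels do not say whether the cells were 1 clone, or whether the 2 samples of a group were separate tumors from separate mice. The sample descriptions carry codes that are not explained: they end in L for both control shRNA tumors and in R for both DHHC3 shRNA tumors, and 1 code of each group holds the number 30. Whatever the final letter stands for cannot be told apart from the group, and the codes were not used as a pairing. The probe sets are annotated to human genes, and how much mouse RNA bound to them was not measured.

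The cell cycle is driven by cyclin-dependent kinases, which are switched on by cyclins and by phosphorylation and switched off by inhibitors and phosphatases. In mitosis each chromosome is held by spindle fibres at its kinetochore, a protein structure built on the centromere, and the anaphase-promoting complex then marks cyclin B and securin for destruction so that sister chromatids can part. The 3 genes act at different points of this sequence. CDKN3 encodes a phosphatase that takes the activating phosphate off cyclin-dependent kinases. CENPN encodes a subunit of the constitutive centromere network that recognises nucleosomes holding the centromeric histone CENP-A. ANAPC15 encodes a small subunit of the anaphase-promoting complex that helps turn over the mitotic checkpoint complex. Transcripts of CDKN3 and CENPN are more abundant in dividing than in resting cells, as is common for mitotic genes in tumors.

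All 3 genes were lower in the DHHC3 shRNA tumors. ANAPC15 was 2.14-fold lower, CDKN3 1.74-fold lower and CENPN 1.67-fold lower, and for each gene both DHHC3 shRNA arrays lay below both control shRNA arrays. These differences are a description and carry no test. The genes were selected on their intensities in this same contrast, with the fold changes known, from a table in which the arrays of the 2 groups did not overlap for any probe set: 137 of 137, or 100%, were separated, and 26.3% were separated with the lower values in the DHHC3 shRNA tumors. The separation of the 3 genes therefore adds nothing to what the table already selects.

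ZDHHC3, the gene that the shRNA targets, went with the labels. It read 971 and 854 arbitrary units of intensity on the control shRNA arrays and 240 and 264 on the DHHC3 shRNA arrays. Over the 137 probe sets, values ran from 9.69 to 9351 units, and the median intensity was 312 and 351 on the control shRNA arrays and 484 and 458 on the DHHC3 shRNA arrays. The median log2 fold change of the table, DHHC3 shRNA minus control shRNA, was 0.94, so the 3 genes lay on the smaller side of a list in which most probe sets were higher.

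CDKN3, the kinase phosphatase, was measured by probe set 209714_s_at (Entrez gene 1033). It read 4123 and 3983 units in control shRNA tumors and 2196 and 2458 units in DHHC3 shRNA tumors. Both DHHC3 shRNA tumors were low. The space between the groups exceeded the spread inside them, in a table that holds only separated groups. The means were 4053 ± 98.8 (SD, n = 2) and 2327 ± 185 (SD, n = 2), and the log2 fold change was -0.80 ± 0.10 (SE). Expressed against the geometric mean of the controls, the DHHC3 shRNA tumors held 54.2% and 60.7% of the CDKN3 signal. Of the 3 genes, CDKN3 had the widest difference between the DHHC3 shRNA tumors, 0.16 on the log2 scale, and the distance between the nearest arrays of the 2 groups was 4.28 times that difference.

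CENPN, the centromere subunit, was measured by probe set 219555_s_at (Entrez gene 55839). Control shRNA tumors read 2367 and 2271 units, and DHHC3 shRNA tumors read 1350 and 1428 units. The groups did not overlap, and the arrays within each group lay close together. The means were 2319 ± 68.1 and 1389 ± 55.4 (SD, n = 2 each), with a log2 fold change of -0.74 ± 0.09 (SE). The DHHC3 shRNA tumors held 58.2% and 61.6% of the control signal, and the nearest arrays of the groups were 8.22 times farther apart on the log2 scale than the 2 DHHC3 shRNA tumors were from each other.

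ANAPC15, the subunit of the anaphase-promoting complex, was measured by probe set 204218_at (Entrez gene 25906). It read 680 and 687 units in control shRNA tumors and 308 and 331 units in DHHC3 shRNA tumors. The controls were nearly alike, and both DHHC3 shRNA tumors were well below them, at 45.1% and 48.4% of the control signal. The means were 683 ± 4.48 and 319 ± 16.1 (SD, n = 2 each), and the log2 fold change was -1.10 ± 0.09 (SE). The nearest arrays of the groups were 10.1 times farther apart on the log2 scale than the DHHC3 shRNA tumors were from each other. For CDKN3, CENPN and ANAPC15 alike, this distance comes from the contrast that chose the genes, so it carries no test. Such a multiple is not particular to the 3 genes. For PFDN4, another lower gene, the nearest arrays of the groups differed 2.02-fold, against 2.06-fold for ANAPC15. The DHHC3 shRNA tumors differed by only 0.016 on the log2 scale for PFDN4, against 0.10 for ANAPC15. The multiples were not ranked over the table.

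**Figure D1:**
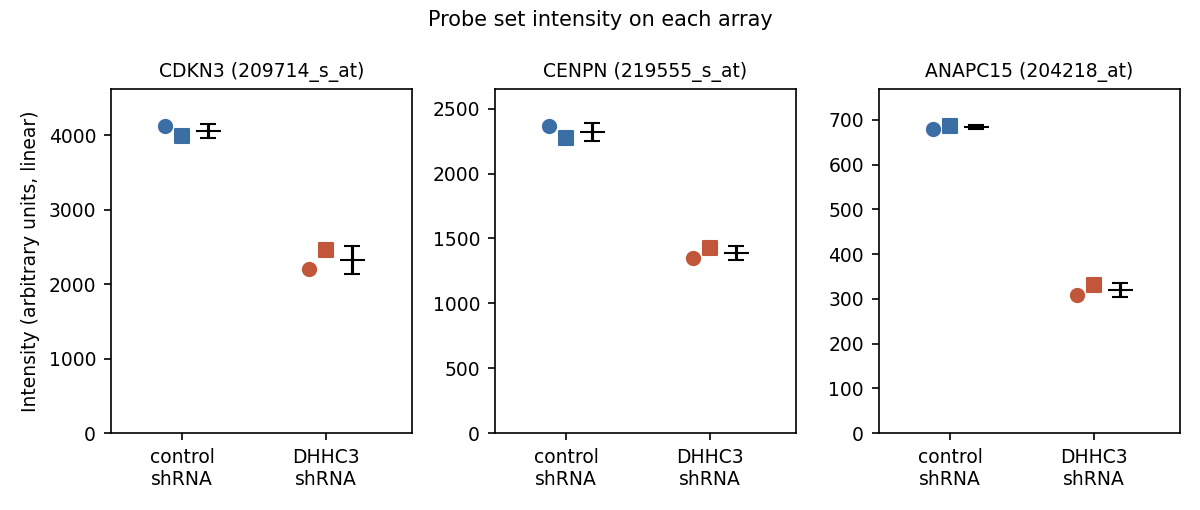
Intensity of the CDKN3, CENPN and ANAPC15 probe sets (arbitrary units, linear axis from 0) in 2 control shRNA tumors (blue) and 2 DHHC3 shRNA tumors (red). Circles are replicate 1, squares are replicate 2, and the black bars are the mean ± SD of each group. For each gene both DHHC3 shRNA tumors sit below both controls, at 45.1% to 61.6% of the control geometric mean.

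In bulk tumor RNA, fewer dividing cells, less RNA of these genes per cell and a smaller share of human tumor cells cannot be told apart. Lists of markers for MDA-MB-231 cells, fibroblasts, endothelium, macrophages, neutrophils, lymphocytes, adipocytes and mammary epithelium (8 lists, 52 genes) had 0 genes among the probe sets with 1 symbol. The line's own defining markers, and the summed level of any of these lists, were therefore not analysed here. Outside the lists, some genes linked to other cell types are given here, picked after their values were seen. The groups were separated for them, as for 100% of the probe sets of the table. Of all probe sets, 26.3% were lower and 73.7% higher in the DHHC3 shRNA tumors. The leukocyte-associated genes TRBC1, PTPN7 and HCLS1 were 4.25-fold, 1.87-fold and 1.66-fold lower in the DHHC3 shRNA tumors, and the collagen genes COL6A3 and COL4A1, which stromal and tumor cells can both express, were 3.14-fold and 1.92-fold higher. TRBC1 was dim in the DHHC3 shRNA tumors, at 25.4 and 50.4 units, which lay 0.99 apart on the log2 scale. The size of its fold is therefore less certain. Any part of these leukocyte-associated and collagen genes in the decreases of CDKN3, CENPN and ANAPC15 was not tested. The suffix _s_at of the CDKN3 and CENPN probe sets marks probes shared by more than 1 transcript, so their signal can sum several transcripts. The ANAPC15 probe set has the suffix _at, which marks probes chosen for 1 transcript.

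Among themselves, the 3 genes formed a pair and 1 gene apart. On the log2 scale relative to the control mean, the DHHC3 shRNA tumors stood at -0.88 and -0.72 for CDKN3 and at -0.78 and -0.70 for CENPN. These ranges overlap. ANAPC15 stood at -1.15 and -1.05, below all values of the other two. The 3 pairs of genes were compared within each array, which removes any factor that scales an array as a whole. The SD given for each pair pools the spread inside the 2 groups. The log2 fold change of ANAPC15 minus that of CDKN3 was -0.295, with an SD of 0.0436. The 2 DHHC3 shRNA tumors gave -0.265 and -0.326. ANAPC15 minus CENPN was -0.358, with an SD of 0.0382, and the same tumors gave -0.369 and -0.348. CDKN3 minus CENPN was -0.0627, with an SD of 0.041, and the same tumors gave -0.103 and -0.0221. The larger decrease of ANAPC15 thus exceeded the spread between arrays of the same group. The difference between CDKN3 and CENPN was carried mainly by DHHC3 shRNA replicate 1 and was -0.0221 without that tumor. A ratio within an array does not remove differences in how probe sets respond, and these were not measured. The smallest two-sided p that an exact permutation test of 2 arrays against 2 can give is 0.333, and no p is given for these pairs, which rest on the contrast that chose the genes.

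The choice of the 3 genes did not use the difference between tumors of the same group, although a table of separated groups limits it. Between the DHHC3 shRNA tumors, replicate 2 was brighter than replicate 1 in all 3 genes, by 0.16 for CDKN3, 0.08 for CENPN and 0.10 for ANAPC15 on the log2 scale. ZDHHC3 itself was also brighter on replicate 2, by 0.14. Of all the probe sets, 60 of 137 were brighter on that array (43.8%), and among the 36 probe sets that were lower in the DHHC3 shRNA tumors 22 were. Differences as wide as those of CENPN and ANAPC15 were common, since 70 and 63 of the 137 probe sets differed by more, whereas 28 differed by more than CDKN3. Between the control shRNA tumors the 3 genes were steadier: CDKN3 differed by -0.05, CENPN by -0.06 and ANAPC15 by 0.01 (replicate 2 minus replicate 1). The median size over all 137 probe sets was 0.15, but most of these were higher in the DHHC3 shRNA tumors. The median over the 36 lower ones was not computed. Among the lower ones, PFDN4 differed by -0.005 and SKIC8 by -0.03, while ZDHHC3 differed by -0.19, so this steadiness is not particular to the 3 genes.

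Within the 36 probe sets that were lower, the 3 genes did not share a place. ANAPC15 ranked 6 by log2 fold change, counted from the largest decrease, while CDKN3 ranked 28 and CENPN ranked 32. The median decrease of those 36 was 1.83-fold, with a range of 1.64-fold to 4.25-fold, so ANAPC15 was above and the other two below the median. Between the closest arrays of opposite groups the ratio was 2.06-fold for ANAPC15, 1.62-fold for CDKN3 and 1.59-fold for CENPN. The smallest such value among the lower probe sets was 1.56, so CENPN and CDKN3 stand close to the edge of what the table holds. The rule that set this edge is not given in the sources used here, and genes just outside it were not analysed here.

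**Figure D2:**
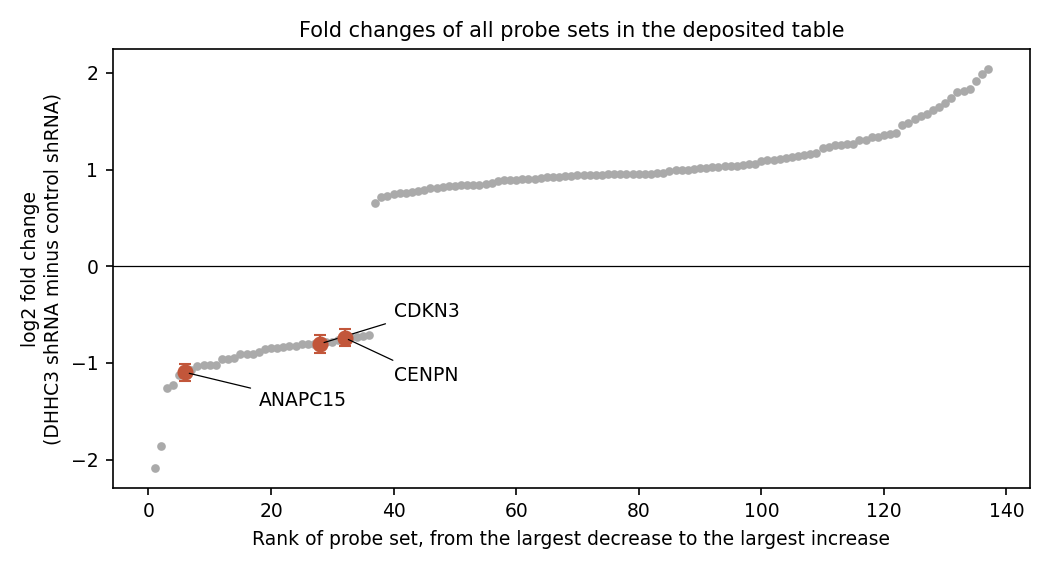
The log2 fold change (DHHC3 shRNA minus control shRNA) of each of the 137 probe sets, ordered from the largest decrease to the largest increase, with CDKN3, CENPN and ANAPC15 in red and their SE as bars. ANAPC15 sits at rank 6, and CDKN3 and CENPN sit at ranks 28 and 32, near the small end of the 36 decreases.

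The likeness of other genes was measured as the Euclidean distance between log2 values over the 4 arrays, after each probe set's own mean was taken off. The smaller the distance, the more alike the patterns. All probe sets share the same arrays and had been separated by group before deposit, so short distances are common and carry no test. CENPN and CDKN3 lay 0.0854 apart, and each was the other's number 4 among the 100 other named probe sets. ANAPC15 lay 0.302 from CDKN3 and 0.362 from CENPN, which placed it at number 28 for both.

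The genes nearest to CDKN3 were SKIC8, a subunit of the SKI complex that assists RNA decay, at 0.0373, the olfactory receptor pseudogene OR7E12P at 0.0495, and NUDT2, a hydrolase of dinucleoside polyphosphates, at 0.0803. SKIC8 read 1416 and 1386 units in control shRNA tumors and 739 and 833 units in DHHC3 shRNA tumors. Like CDKN3, it differed more between the DHHC3 shRNA tumors than between the controls, a likeness that choosing by distance favours. The OR7E12P probe set has the suffix _x_at, which marks probes that can bind other transcripts. Nearest to CENPN were MREG, melanoregulin, at 0.0306, LIPA, the lysosomal acid lipase, at 0.0388, and 1 of the 2 probe sets of BNIP1, a SNARE protein of the endoplasmic reticulum, at 0.0731. MREG read 1531 and 1468 units against 895 and 939 units, and at 1.64-fold it is the smallest decrease of the table. Nearest to ANAPC15 were PFDN4, a prefoldin subunit, at 0.0951, S100A4, a calcium-binding protein, at 0.101, and DHRS3, a retinaldehyde reductase, at 0.143. PFDN4 read 1582 and 1577 units against 771 and 780 units, without the difference between the DHHC3 shRNA tumors that ANAPC15 had. None of these 9 probe sets belongs to a gene of the cell cycle lists. That was fixed beforehand, since the lists have only 2 genes among the named probe sets and both were higher.

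**Figure D3:**
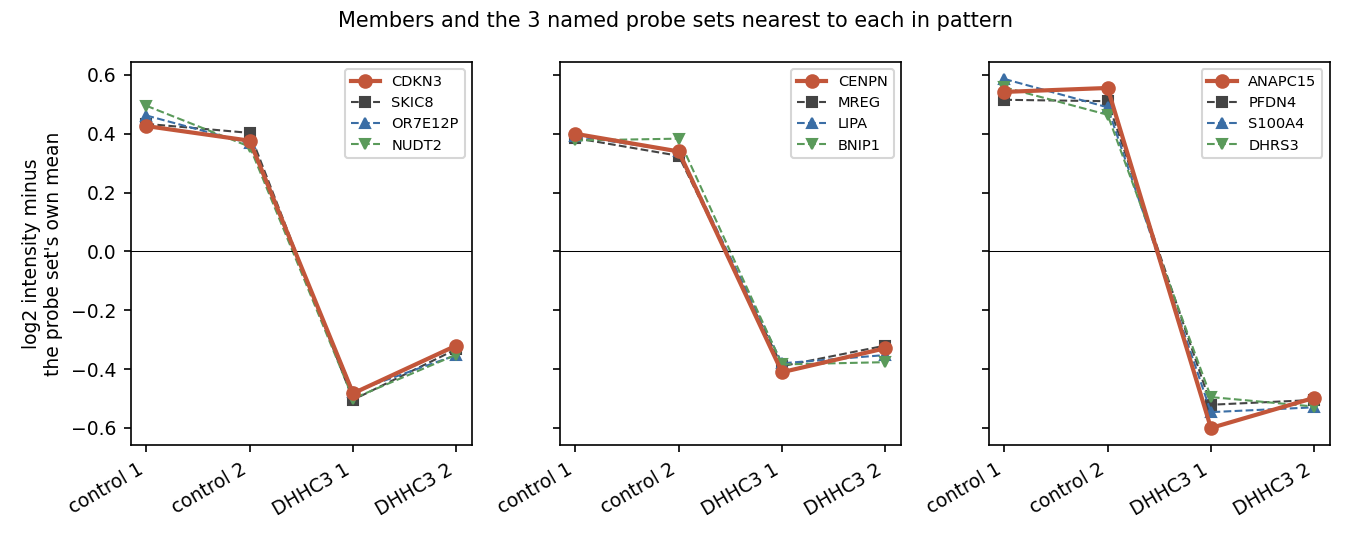
The log2 intensity on each array minus the probe set's own mean over the 4 arrays, for CDKN3, CENPN and ANAPC15 (red) and the 3 named probe sets nearest to each (dashed). The lines join arrays for reading only. In every panel both control shRNA arrays lie above and both DHHC3 shRNA arrays below the mean, with the CDKN3 panel showing the widest space between the DHHC3 shRNA arrays among the 3 genes.

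Other genes of the cell cycle came from 6 lists with 188 genes. The lists of cyclins, cyclin-dependent kinases and their regulators (32 genes) and of centromere and kinetochore proteins (39) had 0 further genes among the probe sets with 1 symbol. So did those of the anaphase-promoting complex and spindle checkpoint (31), of mitotic kinases, spindle and cytokinesis (32) and of DNA replication and S phase (37). Probe sets with several symbols or none were not searched. Whether cyclin B, CDK1, other centromere subunits, other subunits of the anaphase-promoting complex or replication factors such as the MCM helicase differed was therefore not analysed here. The lists do not hold every gene with a part in mitosis, and 1 gene does not describe its complex or pathway.

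The list of the DNA damage checkpoint (17 genes) had 2 genes among the probe sets with 1 symbol. Both were higher in the DHHC3 shRNA tumors, against 73.7% of probe sets that passed the limma test in that direction. ATM, the kinase that signals double-strand breaks, read 484 and 456 units in control shRNA tumors and 815 and 791 units in DHHC3 shRNA tumors, a log2 fold change of 0.77 ± 0.09 (SE). RAD1, part of the clamp that loads at damaged DNA, read 3602 and 4102 units against 6670 and 6815 units, a log2 fold change of 0.81 ± 0.10 (SE). The groups did not overlap for either gene, as for all probe sets of the table. The RAD1 probe set has the suffix _x_at.

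The size of the decreases depended on how the arrays were scaled. The direction stayed the same, but the scalings used could not have reversed it in this table. With each array centred on the median of the table, CDKN3 was 2.48-fold, CENPN 2.38-fold and ANAPC15 3.05-fold lower. With quantile normalization over the table, which keeps only ranks within it, they were 2.29-fold, 2.18-fold and 2.80-fold lower. Both settings move the median log2 fold change of the table, by -0.509 and -0.581, since they balance a list in which most probe sets were higher, and so they enlarge every decrease. The order of the 3 genes stayed as it was: ANAPC15 minus CDKN3 was -0.287 and ANAPC15 minus CENPN was -0.358 after quantile normalization.

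**Figure D4:**
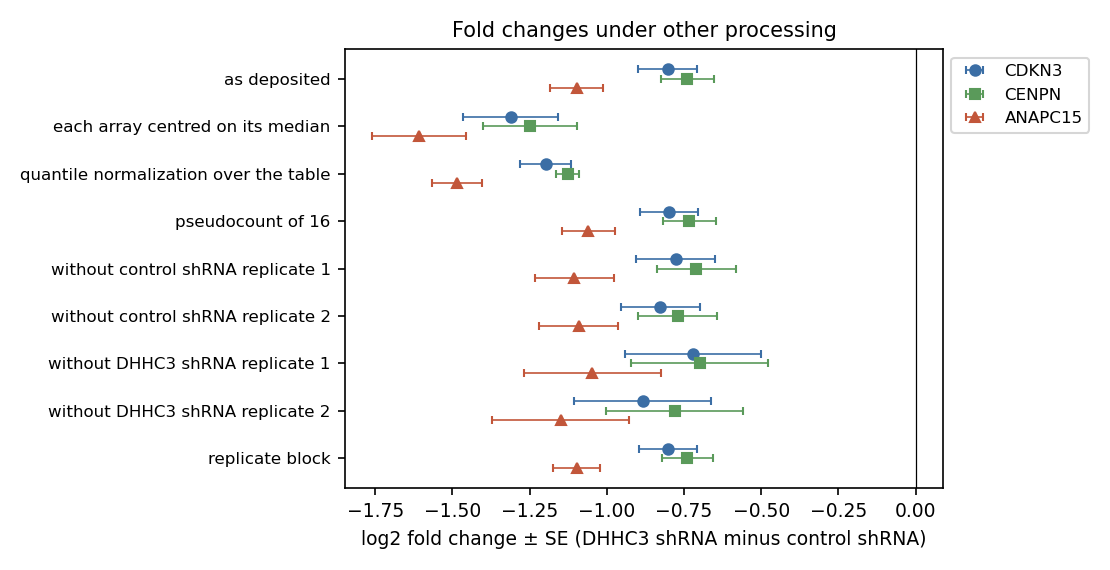
The log2 fold change ± SE (DHHC3 shRNA minus control shRNA) of CDKN3, CENPN and ANAPC15 as deposited and under each other setting. All points lie below 0, between -1.61 and -0.70, and ANAPC15 is the lowest of the 3 genes in every setting shown.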

How the data were processed

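The values are intensity, linear and already processed by the authors, of 137 probe sets on 4 arrays. Per the labels' protocols, tumor RNA was made into cDNA and then into biotinylated cRNA. How the authors summarised, background-corrected and scaled the arrays, and how these probe sets were chosen, is not stated in the sources used here. Gene names came from the platform annotation: 101 probe sets had 1 symbol, 7 had several and 29 had none listed. No human genome, promoter or protein sequence was used here, so no positions or sequences are given.

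Here log2 intensities without a pseudocount were fitted over all 137 probe sets by limma 3.58.1 (lmFit, then eBayes; R 4.3.3), with no covariates and with Benjamini-Hochberg adjustment at 0.05. Folds are ratios of geometric means. The SE comes from that fit, in which the spread is that of probe sets already separated by group, so it may be too small. Python 3.11.15 and matplotlib 3.10.9 were used for summaries and figures. The code of the fit was run on simulated data in which most probe sets were unchanged. The table holds only separated probe sets, so that run does not test the results given here. The number of arrays limits the precision, and the labels do not say that replicate tumors grew in different mice, so spreads may be technical. Arrays that shared a replicate number did not deviate together (correlation of deviations 0.0612 over probe sets), and the numbers were not used as a pairing.

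The members, the lists and the alternatives were chosen with earlier results of these data known. Genes named by rule beside the members were ZDHHC3, any gene of the cell cycle lists with a probe set of 1 symbol, and the 3 named probe sets nearest in pattern to each member. The leukocyte-associated genes, the collagen genes and the further cell division genes were added after their values were seen. The alternatives were median centring, quantile normalization, a pseudocount of 16, leaving out each array, the replicate number as a block and, for the table, leaving out the dimmest 25% of probe sets.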

Additional observations from a re-analysis of the deposited data

How the results depend on the processing

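Under each alternative tried, CDKN3, CENPN, ANAPC15 and ZDHHC3 stayed lower in the DHHC3 shRNA tumors. That direction could not change: the groups do not overlap, and both scalings enlarge decreases in this table. With each array centred on its median the log2 fold changes were -1.31, -1.25, -1.61 and -2.37 in that order, and with quantile normalization they were -1.20, -1.13, -1.48 and -2.24; both shifts follow from balancing a list in which most probe sets were higher. Leaving out 1 array gave -0.88 to -0.72 for CDKN3, -0.78 to -0.70 for CENPN, -1.15 to -1.05 for ANAPC15 and -1.95 to -1.76 for ZDHHC3. CDKN3 minus CENPN ranged from -0.10 to -0.02, with the value nearest 0 without DHHC3 shRNA replicate 1. Each group has 1 array of each replicate number, so the replicate number as a block cannot alter a log2 fold change (CDKN3 -0.80, CENPN -0.74, ANAPC15 -1.10). With that block all 137 probe sets stayed past the limma threshold. That number was 124 with centring, 104 with quantile normalization and 102 of 102 without the dimmest 25%. The calls lost with centring and with quantile normalization were all among probe sets that were higher as deposited, of which 88 and 68 of 101 still passed, while all 36 lower ones passed in both. The table holds only separated groups, so the calls that passed are no evidence of stability. Signal over background is unknown. The lowest value of the 3 genes, 308 units for ANAPC15, compares with 9.69 units at the bottom of the table.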

Other observations

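Outside the fixed lists, further genes linked to cell division had named probe sets, and those given here were chosen after their values were seen. HAUS2, a subunit of the augmin complex that branches spindle microtubules, read 2454 and 2942 units in control shRNA tumors and 5067 and 4951 units in DHHC3 shRNA tumors, or 1.86-fold higher. RANBP2, a nucleoporin that also binds kinetochores in mitosis, read 208 and 230 units against 381 and 384 units, or 1.75-fold higher. NEDD9, a scaffold protein of focal adhesions and of the mitotic spindle, read 507 and 457 units against 910 and 862 units, or 1.84-fold higher. SPDYE2 is of the Speedy family, some members of which activate cyclin-dependent kinases. It read 62.6 and 88.3 units against 245 and 233 units, or 3.22-fold higher. Its control shRNA arrays were dim and lay 0.495 apart on the log2 scale, so this fold is less certain. For comparison, 73.7% of all probe sets in the table were higher, and no test of these genes as a group was run. The probe sets of HAUS2 and RANBP2 have the suffix _x_at and can bind other transcripts, and RANBP2 belongs to a family of near-identical duplicated genes, so which of them gave its signal is uncertain.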
